A study of Mus musculus with 58 samples.

Results

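Among 16461 oligonucleotide inserts read in mouse embryonic stem cells, 603 (3.66%) had exactly 1 spliced reference that lacked 120 nt or more of the insert. They are called long-intron inserts here. Membership was read from the lengths of the deposited references only: the length of the plain insert reference minus that of its spliced reference gave the intron length, and no read count was used. The intron is the stretch that the authors' spliced reference leaves out, and the labels do not say how that reference was drawn up. Insert sequences were not used here, so inserts are named by their number in the library.

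Introns are removed from nascent RNA by the spliceosome, which joins a 5′ splice site to a branch point and a 3′ splice site, often while the RNA is still attached to chromatin. Splice sites near a promoter are known to stabilise RNA and to favour productive elongation, whereas upstream antisense RNAs and many long noncoding RNAs are short-lived substrates of the nuclear exosome. RRP40, encoded by Exosc3, is a subunit of the exosome core.

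Per the labels, each screen put the same kind of 175 nt insert library into 1 of 2 places in F121-9, a hybrid mouse embryonic stem cell line that carries TagBFP2 at the Oct4 C terminus. One place was the lincRNA gene 4930461G14Rik (14Rik), with the insertion site 102 nt from the transcription start. The other was the upstream antisense transcript of Pou5f1, which encodes the pluripotency factor Oct4, with the insertion site 157 nt from the antisense start and upstream of an mKate2 reporter. Per the labels, the 14Rik site was on the CAST allele and the Pou5f1 site on the 129 allele. RNA and genomic DNA (gDNA) around the insert were amplified and counted, and the ratio of both was read as RNA per integrated copy. Spliced references are shorter than plain ones by the intron length, and an effect of product length on amplification was not tested.

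The groups were total RNA at 14Rik (3 libraries), total RNA at Pou5f1 (4), run-on RNA at Pou5f1 made during 15 min (2), and chromatin-associated RNA at Pou5f1 (2). Total RNA at Pou5f1 was also taken 48 h after transfection with 40 nM of siRNA: siRRP40, a mix against Exosc3 (3 cultures), or siNT, a non-targeting control (3 cultures). For sorting by mKate2, gDNA of 6 bins was counted in each of 2 screens. All groups shared the F121-9 background, and nothing in the labels ties replicate libraries to independent clones. In the mouse annotation (GRCm38.p6), 14Rik is a lncRNA gene on chromosome 9 (58455173 to 58469623) and Pou5f1 a protein-coding gene on chromosome 17 (35506032 to 35510777). The libraries are amplicons of the insert, so neither the cell identity nor the depletion of Exosc3 could be read from them.

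RNA libraries held 2665226 to 94099800 reads on references, gDNA libraries 1991728 to 48334996 and sorted bins 507182 to 7437828. In every library 45.7% to 56.7% of the counted reads had no reference. No count was odd, so each read pair entered as 2 reads, and a count of 0 is given with the limit of 3 read pairs. The gDNA tables listed plain references only, so no spliced share could be measured in DNA. In gDNA the long-intron inserts were thinner than the library as a whole. At 14Rik, 505 (83.7%) of them passed the minimum of 50 gDNA reads in every screen, against 89.6% of all inserts, and their median summed gDNA count was 2166, against 3648. At Pou5f1, 312 (51.7%) passed, against 64.7% of all inserts, and the median was 1748, against 2736. Pou5f1 screens 2 and 3, which gave 2 of the 4 total RNA libraries and both chromatin libraries, share a library identifier in their names and stood apart from screens 1 and 4 by lower spliced shares. Levels and shares are therefore given for each library.

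The introns were 120 to 155 nt long (median 135), which left 20 to 55 nt (median 40) of the insert in the spliced reference. Introns of 120 to 129 nt were found in 217 inserts, of 130 nt or more but under 140 nt in 167 and of 140 to 155 nt in 219. Long-intron inserts were not spread evenly over the library's numbering. Numbers 12100 to 12899 held 211 of them, and in that stretch 714 of 800 inserts (89.2%) had a spliced reference. Numbers 13400 to 13899 held a further 140, with a spliced reference for 322 of 500 inserts (64.4%), while the remaining numbers held 252, with a spliced reference for 1368 of 15161 inserts (9.02%). The stretches are runs of 100 numbers each in which over 50% of inserts had a spliced reference, a rule chosen after seeing the data, and what they were designed to hold is not given in the labels. Only 9 pairs of neighbouring numbers shared an intron length.

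All 603 long-intron inserts had RNA reads and 597 had at least 1 spliced read. The other 6 had none among 1800 to 149900 RNA reads each (median 17484), which allows a spliced share of up to 0.333% for the shallowest and 0.00400% for the deepest. At least 20 reads in every one of the 17 RNA libraries were available for 394 inserts. The spliced share below is the percentage of an insert's RNA reads that fell on its spliced reference, in libraries where it had at least 20 reads.

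Over all measured long-intron inserts, the median spliced share was over 50% in every total RNA library. Among those with 200 or more gDNA reads it was lower, at 30.5%, 28.1% and 36.0% in Pou5f1 screens 1 to 3 and 85.6% in screen 4. Over all measured inserts at 14Rik the median share was 65.6%, 72.5% and 80.0% in the 3 libraries. At Pou5f1 the medians were 83.5%, 56.1%, 59.3% and 90.0% in screens 1 to 4, with screens 2 and 3 lowest. In run-on RNA the medians were 37.3% and 20.9%, and in chromatin RNA 14.5% and 10.8%, so neither kind overlapped with total RNA. In siRNA-treated cells they were 89.0%, 90.2% and 89.3% with siRRP40, against 89.8%, 91.6% and 92.5% with siNT.

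The library medians averaged 72.7% ± 7.2 (SD, n = 3) in total RNA at 14Rik and 72.2% ± 17 (n = 4) at Pou5f1. They averaged 29.1% ± 12 (n = 2) in run-on RNA and 12.7% ± 2.6 (n = 2) in chromatin RNA. Behind these medians the inserts fell into extremes. In the 3 siNT libraries 49.6%, 52.3% and 53.0% of the measured long-intron inserts were over 90% spliced, while 9.01%, 9.58% and 9.44% were under 1% spliced. At 14Rik 26.5%, 26.7% and 36.9% were over 90% spliced and 21.7%, 14.5% and 9.83% under 1%. In chromatin RNA 11.8% and 10.8% were over 90% spliced, and 33.7% and 31.7% were under 1%.

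The spliced share also moved with how often the insert itself was seen in gDNA of the same screen. This was read after the pattern had been seen, in ranges of gDNA reads chosen then. In total RNA at Pou5f1, long-intron inserts with 200 or more gDNA reads had median shares of 30.5%, 28.1%, 36.0% and 85.6% in screens 1 to 4. Those with 50 or more but under 200 gDNA reads had 71.7%, 91.1%, 99.1% and 96.7%, and those with fewer than 6 gDNA reads had 99.7%, 100%, 100% and 100%. At 14Rik the medians with 200 or more gDNA reads were 59.7%, 58.6% and 72.5%, and with fewer than 6 they were 100%, 98.5% and 97.4%. In run-on RNA they were 25.3% and 16.6% with 200 or more gDNA reads, and in chromatin RNA 7.96% and 7.36%. With siRRP40 the well-covered inserts had 49.8%, 52.0% and 70.6%, against 63.4%, 54.6% and 60.1% with siNT. The medians over all measured inserts thus stood above those of the well-covered inserts in all 17 libraries.

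Some inserts had RNA with next to no gDNA. At least 200 RNA reads with fewer than 6 gDNA reads were found for 57, 52 and 49 long-intron inserts with siRRP40 (9.45%, 8.62% and 8.13% of all 603, against 1.31%, 1.26% and 1.19% of all inserts in the library). With siNT there were 65, 60 and 49 such inserts (10.8%, 9.95% and 8.13%, against 1.87%, 1.62% and 1.31% of all inserts). In total RNA at 14Rik there were 7, 14 and 23 (1.16%, 2.32% and 3.81%, against 0.121%, 0.261% and 0.310% of all inserts). At Pou5f1 there were 25, 2, 8 and 23 (4.15%, 0.332%, 1.33% and 3.81%, against 0.437%, 0.0729%, 0.231% and 0.383% of all inserts). The part of such inserts in the median spliced shares was not tested beyond the split by gDNA reads above. They enter none of the RNA per gDNA tests, which required 50 gDNA reads in every screen.

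The nearest class were 636 inserts with mid-length introns, of 95 nt or more but under 120 nt. Their median shares were below those of the long-intron inserts in 17 of 17 libraries. In total RNA at 14Rik the long-intron inserts had the medians above, against 41.5%, 48.96% and 54.6% for mid-length introns, and at Pou5f1 the mid-length class had 56.8%, 33.2%, 46.7% and 61.8%. In run-on RNA the mid-length class had 12.6% and 6.19%, and in chromatin RNA 10.4% and 9.57%, close to the long-intron medians there. Over the siRNA cultures, the long-intron medians averaged 89.5% ± 0.58 with siRRP40 and 91.3% ± 1.4 with siNT, against 57.3% ± 2.1 and 62.3% ± 4.9 for mid-length introns (SD, n = 3 cultures each). Introns of 70 to 94 nt were lower still in total RNA, with 37.4%, 41.4% and 47.1% at 14Rik, and inserts that lost fewer than 70 nt (352) had a median of 0 in every library.

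Held to inserts with 200 or more gDNA reads in the same screen, the long-intron median exceeded that of mid-length introns in 15 of 17 libraries, by a median of 18.2 points (range -12.0 to 35.2). Held to inserts with 50 or more but under 200 gDNA reads it exceeded it in 15 of 17, by a median of 25.8 points. Held to those with 6 or more but under 50 it exceeded it in 13 of 17, by 12.6 points, and with fewer than 6 in 6 of 17, where both classes were near 100%. At 200 or more gDNA reads, the long-intron medians averaged 63.6% ± 7.7 at 14Rik (n = 3), 57.5% ± 11.4 with siRRP40 (n = 3) and 59.4% ± 4.4 with siNT (n = 3). Mid-length introns averaged 40.9% ± 4.3, 31.1% ± 4.5 and 39.5% ± 6.7 in the same groups. In total RNA at Pou5f1 the long-intron average was 45.0% ± 27.2, against 36.5% ± 12.6 (SD, n = 4), a gap within the spread between screens.

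Near the length limit the classes ran into each other. Just inside it, the 217 inserts with introns of 120 to 129 nt had medians of 54.5%, 66.7% and 76.7% at 14Rik and 66.5%, 38.3%, 50.0% and 85.5% in total RNA at Pou5f1. Just outside it, the 244 inserts with introns of 110 nt or more but under 120 nt had 47.9%, 58.7% and 67.1% at 14Rik and 64.9%, 39.1%, 56.2% and 73.0% at Pou5f1. In chromatin RNA the inserts just inside had 8.43% and 9.37%, against 14.4% and 16.6% just outside.

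Among long introns themselves, the middle lengths were the most spliced. Inserts with introns of 130 nt or more but under 140 nt had median shares of 94.2%, 73.3%, 84.5% and 94.9% in total RNA at Pou5f1, against 80.4%, 45.9%, 41.3% and 88.9% for introns of 140 to 155 nt. In run-on RNA the middle lengths had 57.9% and 41.7%, against 35.8% and 24.5% for the longest, and in chromatin RNA 24.9% and 29.1%, against 12.6% and 7.77%. Insert by insert, however, intron length and spliced share were nearly unrelated, with a Spearman's rho of -0.0020 to 0.08 over the 6 kinds of RNA (482 to 562 inserts each). These points share their libraries, and the number stretch of an insert also moves with its share.

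Long-intron inserts numbered 12100 to 12899 had medians of 86.0%, 86.0% and 92.1% at 14Rik, 96.7%, 87.7%, 92.7% and 98.0% in total RNA at Pou5f1, and 50.6% and 39.0% in chromatin RNA. Those numbered 13400 to 13899 had 73.5%, 83.7% and 84.3% at 14Rik and 83.3%, 59.2%, 59.7% and 92.8% at Pou5f1. Those in the remaining numbers had only 16.5%, 19.7% and 20.3% at 14Rik and 26.2%, 8.92%, 9.46% and 51.8% at Pou5f1. The number stretch therefore separated long-intron inserts more than the intron length did. Whether the stretches differ in design is not given in the labels, so length and stretch cannot be fully told apart.

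Total, run-on and chromatin RNA were compared insert by insert over the 434 long-intron inserts with 20 or more reads in all 8 untreated Pou5f1 libraries. The mean share in total RNA was 90% or more in 158 of them, 50% or more in 260, between 10% and 50% in 89 and under 10% in 85. It was above the run-on mean in 383 inserts and above the chromatin mean in 401, and the run-on mean was above the chromatin mean in 293. These orders of means were not counted over all inserts with 1 spliced reference, so they are not read as particular to long introns. Every total RNA library stood above every run-on library in 170 inserts (39.2%), where 40.0% of all inserts with 1 spliced reference did. Every total RNA library stood above every chromatin library in 241 (55.5%), where 42.8% of inserts with 1 spliced reference did. Every run-on library stood above every chromatin library in 177 (40.8%), against 25.5% of that background. Run-on and chromatin RNA shared no screen, and the screens with chromatin RNA had the lowest median total RNA shares over all measured inserts. The order of run-on and chromatin RNA can therefore not be told apart from a difference between screens, which was not tested. The total RNA means behind the 401 inserts also draw on screens without chromatin RNA.

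Of the 260 inserts at 50% or more in total RNA, 180 were also at 50% or more in run-on RNA and 7 were under 10% there. In chromatin RNA 135 were at 50% or more and 24 under 10%. By mean share, 69.2% of these well-spliced long introns were thus missing from 50% or more of the run-on reads. For chromatin reads it was 51.9%, and few of them were almost unspliced in either kind.

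In edgeR's quasi-likelihood test of the odds of spliced reads, none of 475 long-intron inserts passed a Benjamini-Hochberg adjusted p of 0.05 between total and run-on RNA, where 0.0% of 1995 inserts passed. At an unadjusted p under 0.05, 135 (28.4%) were higher in total RNA and none lower, where 29.8% of all tested inserts had such a p. limma on log odds called 65 (13.7%) higher and 0 lower, where it called 14.9% of all tested inserts, so neither count of long-intron inserts stood above the background. Between total and chromatin RNA none of 439 passed (0.0% of 1888), although 155 (35.3%) had an unadjusted p under 0.05, all higher in total RNA, where 25.2% of all tested inserts had such a p. limma called 12 (2.73%), where it called 1.75% of all tested inserts. The median log2 difference in odds was 3.05 against run-on RNA and 4.62 against chromatin RNA, where all tested inserts had 3.17 and 3.58. The test against chromatin RNA set all 4 total RNA libraries against 2 chromatin libraries, without pairing screens 2 and 3. The number of calls therefore depended on the model. All p-values here measure the spread between these screens or cultures, which may be technical.

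sequence_12550 (128 nt removed) was spliced at every stage. Its shares were 96.2%, 94.5% and 94.9% at 14Rik, 99.2%, 98.0%, 99.8% and 99.7% in total RNA at Pou5f1, 91.4% and 78.5% in run-on RNA and 74.8% and 91.6% in chromatin RNA. sequence_01009 (126 nt removed) had shares of 90.2%, 21.3%, 34.3% and 96.2% in total RNA at Pou5f1 and 58.0% and 50.1% in run-on RNA, yet 1.53% and 1.71% on chromatin. In screens 2 and 3, where both kinds were read, its total RNA shares of 21.3% and 34.3% still exceeded the chromatin shares.

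sequence_13436 and sequence_13676, both with the longest intron of 155 nt, kept it to different degrees. sequence_13436 had shares of 48.4%, 36.5% and 46.0% at 14Rik, 35.6%, 14.7%, 9.47% and 52.1% in total RNA at Pou5f1 and 17.8% and 6.26% in chromatin RNA. sequence_13676 had 98.7%, 84.8% and 99.4% at 14Rik, 70.6%, 25.6%, 24.4% and 83.5% at Pou5f1 and 11.6% and 7.77% in chromatin RNA. For sequence_13676 all 14Rik libraries stood above all Pou5f1 libraries.

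Few long introns passed a test of their share between the loci. Of 448 inserts with enough reads in all 7 total RNA libraries, 260 were 50% or more spliced at both loci and 64 under 10% at both. Only 2 were under 10% at 14Rik and 50% or more at Pou5f1, and 0 the other way. The mean share was lower at 14Rik in 250 inserts and higher in 193. All 14Rik libraries stood below all Pou5f1 libraries in 75 inserts (16.7%, against 19.3% of inserts with 1 spliced reference) and above them in 30 (6.70%, against 10.2%). Mean shares at 14Rik and Pou5f1 had Pearson's r of 0.87 over the 448 inserts, which share the reference set and the count minimum.

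edgeR's test of spliced odds called 1 long-intron insert higher and 7 lower at 14Rik of 448 (0.159% and 2.28%, 2.44% in all, of the tested inserts), with a median log2 difference of -0.81, where all tested inserts had -0.92. sequence_01435 (121 nt removed) was the one called higher: 3.53%, 8.43% and 6.08% of its RNA reads were spliced at 14Rik, and 0 of 5674 at Pou5f1, which allows a share of up to 0.106% (adjusted p = 0.0442). sequence_12278 (148 nt) had 93.0%, 91.3% and 94.7% at 14Rik, against 100%, 100%, 100% and 99.98% at Pou5f1 (log2 difference -8.65, SE 1.09, adjusted p = 0.0275). It had only 0, 12, 0 and 34 gDNA reads in the Pou5f1 screens. sequence_12397 had 78.8%, 69.01% and 84.2% at 14Rik, against 100%, 100%, 100% and 99.2% at Pou5f1 (log2 difference -8.19, SE 1.75, adjusted p = 0.0480). Each of these calls was lost when any 14Rik library was left out. No long-intron insert was called without Pou5f1 screen 1, 3 were called without screen 3 and 13 without screen 4, and fitted differences against shares of 0 or 100% depend on the prior count.

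No spliced share of a long intron passed the test of siRRP40 against siNT. Over 521 inserts the siRRP40 mean was below the siNT mean in 294, above it in 162 and equal in 65, with a median difference of -0.18 percentage points. All siRRP40 cultures stood below all siNT cultures in 37 inserts (7.10%, against 8.43% of inserts with 1 spliced reference) and above them in 16 (3.07%, against 2.54%). edgeR called 0 of 521 (0.0% of 2097), with 9 higher and 23 lower (6.14% in all) at an unadjusted p under 0.05, where 5.53% of all tested inserts had such a p, and limma also called 0. The mean shares under siRRP40 and siNT had a Pearson's r of 0.98 over these inserts. The median log2 difference of the odds was -0.30, where all tested inserts had -0.28.

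Per copy of gDNA, long-intron inserts gave more RNA than the library median in every RNA library. The level is log2 of RNA over gDNA reads, each with a prior count of 2, minus the median over all inserts with 50 or more gDNA reads in that screen. A level per copy cannot tell more RNA in each carrying cell from RNA in more of them. At 14Rik the median level of long-intron inserts was 1.62, 1.24 and 1.77, against 0.03, 0.03 and 0.01 over the inserts tested. In total RNA at Pou5f1 it was 1.37, 0.90, 0.85 and 1.80, against 0.04, 0.13, 0.18 and 0.18. It was 0.67 and 0.61 in run-on RNA and 0.40 and 0.40 in chromatin RNA, all below the total RNA medians. With siRRP40 it was 1.38, 1.33 and 1.18, and with siNT 1.39, 1.54 and 1.59.

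The excess lay in spliced reads. With unspliced reads alone, the median level of long-intron inserts was -0.06, -0.65 and -0.50 at 14Rik and -1.14, -0.46, -0.88 and -0.9997 in total RNA at Pou5f1. It was -0.20 and 0.19 in run-on RNA and -0.06 and 0.00 in chromatin RNA, close to the library median. With siRRP40 it was -1.03, -1.20 and -1.11, and with siNT -1.28, -1.12 and -1.25.

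Long-intron inserts took 6.46%, 5.82% and 7.28% of all reads in RNA at 14Rik, against 2.33%, 2.76% and 2.45% in gDNA. At Pou5f1 they took 8.10%, 3.66%, 3.78% and 11.6% of total RNA, against 2.87%, 2.54%, 2.70% and 2.77% of gDNA. In chromatin RNA of screens 2 and 3 they took 2.91% and 3.15%, little more than in the gDNA of the same screens.

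Between the length classes the levels differed less than the spliced shares. Mid-length introns had median levels of 1.52, 1.18 and 1.52 at 14Rik and 1.25, 1.07, 1.136 and 1.48 in total RNA at Pou5f1. The long-intron median was higher in 13 of 17 libraries, but in 2 of 4 Pou5f1 total RNA libraries and in neither chromatin library. The gap was 0.14 ± 0.10 at 14Rik (mean ± SD, n = 3), and in total RNA at Pou5f1 it ranged from -0.28 to 0.32 over the 4 screens, with no common sign.

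The level moved with the spliced share far more than with the class. Long-intron inserts that were 90% or more spliced in siNT cells (265) had median levels of 2.78, 2.15 and 2.78 at 14Rik and 2.62, 1.67, 1.79 and 3.99 in total RNA at Pou5f1. The nearly unspliced ones, with a siNT share under 10% (79), had 0.68, 0.45 and 0.84 at 14Rik and 0.50, 0.32, 0.31 and 0.02 at Pou5f1. The last value, in screen 4, was below the median over the inserts tested in that screen. In siNT cells, whose RNA reads also gave the share, their median log2 change of RNA over gDNA was -0.27, where all tested inserts had 0.04. In chromatin RNA the gap between the 2 groups was smaller, with 0.73 and 0.65 for the well-spliced inserts, against 0.23 and 0.34 for the nearly unspliced ones. In unspliced reads alone, the well-spliced inserts had -2.29, -1.69, -2.43 and -2.42 in total RNA at Pou5f1, but -0.33 and 0.37 in run-on RNA.

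In total RNA at Pou5f1, edgeR's test of RNA against gDNA with the screen as a block called 147 of 312 long-intron inserts higher and 27 lower at an adjusted p of 0.05. Of all 10650 tested inserts 22.8% were called higher and 18.0% lower (40.8% in all). The median log2 change was 1.13, where all tested inserts had -0.13, and 143 of the 147 rose over 2-fold and 38 over 8-fold. Scaled to library totals, under which the median of all tested inserts was -0.70, the split was 106 higher and 49 lower, where 13.2% and 34.1% of all tested inserts were. With at least 200 gDNA reads in every library, 58 long-intron inserts were left, of which 32 were higher and 9 lower (30.0% and 26.6% of all inserts with that coverage), with a median log2 change of 0.97, where all inserts with that coverage had 0.00.

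Calls of higher RNA were most frequent among well-spliced inserts. Of the 126 tested inserts that were 90% or more spliced in siNT cells, a readout from other cultures at the same locus, 89 were higher and 0 lower. Of the 60 with a siNT share under 10%, 13 were higher and 12 lower. The share called higher was 47.1% for long introns, 48.9% for mid-length introns, 49.5% for 70 to 94 nt, 32.7% for shorter ones and 19.3% for inserts without a spliced reference. By number stretch, 69 of 103 were higher among 12100 to 12899, 33 of 66 among 13400 to 13899 and 45 of 143 elsewhere. By intron length, 47 of 125 were higher for 120 to 129 nt, 51 of 78 for 130 nt or more but under 140 nt, and 49 of 109 for 140 nt or more.

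Of the 312 inserts tested, sequence_12550 gave the largest rise, with 4542, 18220, 22462 and 168918 RNA reads, against 152, 292, 404 and 1226 gDNA reads (log2 change 5.61, SE 0.32, adjusted p = 0.000141). Its levels were 5.24, 6.00, 5.64 and 6.39, all far above the library median. sequence_09770 (125 nt removed) had 1628, 3998, 3136 and 172070 RNA reads, against 72, 142, 384 and 1858 gDNA reads (log2 change 4.42, SE 0.51, adjusted p = 0.000639). It was spliced in 96.3%, 82.6%, 91.5% and 99.3% of its reads.

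At the low end, sequence_12157 (122 nt removed) had 2, 0, 0 and 694 RNA reads, against 86, 478, 204 and 684 gDNA reads (log2 change -6.40, SE 2.09, adjusted p = 0.0358). Screens 1 to 3 held almost none of its RNA, while screen 4 held about as many RNA as gDNA reads from a deeper library. sequence_13853 (126 nt removed) had 10, 2, 0 and 496 RNA reads, against 116, 138, 216 and 1298 gDNA reads (log2 change -4.78, SE 1.40, adjusted p = 0.0239). Both calls were lost without screen 1 or screen 2. In the siRNA cultures at the same locus sequence_12157 was not low throughout: its levels were 0.41, -2.76 and 0.89 with siRRP40 and -0.38, 1.03 and 2.09 with siNT, over 50, 250 and 78 gDNA reads with siRRP40 and 220, 10 and 44 with siNT.

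At 14Rik, 276 of 505 long-intron inserts were called higher in total RNA than in gDNA and 28 lower, where 24.4% and 18.5% of all 14755 tested inserts were (42.9% in all). The median log2 change was 1.55, where all tested inserts had -0.08, and 93 rose over 8-fold. Scaled to library totals, which put the median of all tested inserts at -0.80, the split was 214 higher and 62 lower, where 12.1% and 32.6% of all tested inserts were. Of the 207 inserts that were 90% or more spliced in siNT cells at the other locus, 159 were higher and 1 lower, and of the 75 under 10% there, 25 were higher and 6 lower. The share called higher was 54.7% for long introns, 52.2% for mid-length introns, 51.2% for 70 to 94 nt and 20.4% without a spliced reference.

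sequence_12227 (132 nt removed) had 30038, 15804 and 28148 RNA reads at 14Rik, against 558, 250 and 288 gDNA reads (log2 change 5.52, SE 0.33, adjusted p = 0.000282), and 96.1%, 97.1% and 97.6% of its RNA reads were spliced. sequence_13402 (120 nt removed) had 12694, 11204 and 14694 RNA reads, against 286, 132 and 332 gDNA reads (log2 change 5.19, SE 0.35, adjusted p = 0.000526), with 97.8%, 96.9% and 97.5% spliced. Both sat far above the library median in all 3 screens. sequence_12483 (145 nt removed) had 2, 4 and 18 RNA reads, against 122, 466 and 110 gDNA reads (log2 change -5.62, SE 1.48, adjusted p = 0.0171). sequence_13050 (125 nt removed) had 24, 4 and 322 RNA reads, against 1340, 504 and 770 gDNA reads (log2 change -5.28, SE 1.33, adjusted p = 0.0144).

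Chromatin and run-on RNA showed smaller excesses and fewer calls. In chromatin RNA 22 of 308 long-intron inserts were called higher and 1 lower (3.37% and 1.26%, 4.63% in all, of the 10616 tested), with a median log2 change of 0.43, where all had -0.06. The share called higher was 7.14% for long introns, against 12.8% (47 of 367) for mid-length introns. In run-on RNA 9 of 308 were called higher and 1 lower (0.782% and 0.433%, 1.22% in all, of the inserts tested), with a median of 0.28, where all had -0.05, and 8 of the 9 were among the 123 inserts 90% or more spliced in siNT cells. DESeq2 called 54 (17.5%) in chromatin RNA and 49 (15.9%) in run-on RNA, where it called 14.7% and 9.57% of all tested inserts. Without screen 2, 7 calls were left in chromatin RNA. The calls in run-on RNA numbered 3 without screen 1, 4 without screen 2, 25 without screen 3 and 0 without screen 4 or 5, which hold the run-on libraries.

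Of the 308 inserts tested, sequence_12550 had the largest log2 change in both run-on and chromatin RNA. Its levels were 4.10 and 4.60 in run-on RNA (log2 change 4.11, SE 0.35, adjusted p = 0.000611) and 4.14 and 3.56 in chromatin RNA (log2 change 3.77, SE 0.31, adjusted p = 0.000558). sequence_01009 had 3004 and 3734 chromatin RNA reads, against 404 and 326 gDNA reads (log2 change 3.73, SE 0.57, adjusted p = 0.00804), nearly all of them unspliced. sequence_12687 (132 nt removed) had 10886 and 8824 run-on reads, against 538 and 290 gDNA reads (adjusted p = 0.0459), with 96.7% and 71.3% spliced. sequence_13993 (120 nt removed) was the one lower in run-on RNA, with 76 and 40 RNA reads, against 290 and 798 gDNA reads (log2 change -4.03, SE 0.87, adjusted p = 0.0487). sequence_11011 (129 nt removed) was the one lower in chromatin RNA (log2 change -1.54, SE 0.38, adjusted p = 0.0414), with levels of -1.10 and -1.68.

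Total RNA exceeded run-on RNA in 16 of 308 long-intron inserts and fell below it in 1 (3.69% and 0.801%, 4.49% in all, of the inserts tested), with a median log2 difference of 0.85, where all had 0.05. Scaled to library totals the split was 7 higher and 2 lower (1.47% and 1.71% of all tested inserts), with a median of -0.37 for all tested inserts. The share called higher was 5.19% for long introns, against 11.4% (42 of 367) for mid-length introns. sequence_13447 (123 nt removed) had levels of 1.42, 1.56, 2.68 and 2.55 in total RNA, against -2.87 and -0.84 in run-on RNA (log2 difference 4.13, SE 0.74, adjusted p = 0.0154). sequence_13993 had 0.36, 0.28, -0.47 and 1.58 in total RNA and was again low in run-on RNA (log2 difference 4.05, SE 0.87, adjusted p = 0.0277). sequence_11011 was the one lower, with -2.13, -2.12, -2.05 and -2.57 in total RNA, against -1.11 and 0.07 in run-on RNA (log2 difference -1.82, SE 0.42, adjusted p = 0.0348). The calls in either direction numbered 3 without screen 1, 32 without screen 3 and 0 without screen 4 or screen 5.

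In siNT cells 186 of 302 long-intron inserts were called higher in RNA than in gDNA and 49 lower (35.4% and 32.0%, 67.4% in all, of the 9812 tested), with a median log2 change of 1.43, where all had 0.04. Scaled to library totals, with a median of -0.84 for all tested inserts, the split was 148 higher and 84 lower, where 18.4% and 50.5% of all tested inserts were. With at least 200 gDNA reads in every library, 79 were higher and 26 lower of 126 (39.3% and 36.5% of all inserts with that coverage). Long introns were called higher in 61.6%, mid-length introns in 60.4%, introns of 70 to 94 nt in 60.0% and inserts without a spliced reference in 32.0%.

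By the siNT spliced share in the same RNA libraries, 102 of 111 inserts at 90% or more were higher and 0 lower. At 50% to 90% there were 37 higher and 6 lower of 59, at 10% to 50% 27 higher and 18 lower of 64, and under 10% 20 higher and 23 lower of 66. Share and level come from the same RNA reads here, so this order is a description. The same order of shares stood against levels in the other Pou5f1 screens: the siNT share and the level had a Spearman's rho of 0.54, 0.45, 0.41 and 0.74 in total RNA of screens 1 to 4 (302 inserts), 0.55 and 0.57 in run-on RNA and 0.27 and 0.19 in chromatin RNA (298 inserts). At 14Rik it was 0.57, 0.41 and 0.53 (443 inserts). These inserts share the library design.

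Of the 302 inserts tested, sequence_12550 had the largest log2 change in siNT cells, with levels of 6.51, 6.62 and 6.17 with siRRP40 and 7.29, 6.65 and 6.44 with siNT (siNT RNA against gDNA, log2 change 6.72, SE 0.20, adjusted p = 1.98e-13). sequence_12363 (140 nt removed), which had the most RNA reads of all long-intron inserts, had 148440, 193182 and 153126 siNT RNA reads, against 406, 234 and 510 gDNA reads (log2 change 6.04, SE 0.22, adjusted p = 7.59e-13). Its spliced shares were 99.7%, 99.5% and 99.7% with siNT and 50.3% and 46.2% in untreated chromatin RNA. The lowest were sequence_11146 (145 nt removed), with 390, 498 and 196 siNT RNA reads, against 950, 818 and 1140 gDNA reads (log2 change -4.27, SE 0.35, adjusted p = 1.06e-08), and sequence_11011, with levels of -3.92, -3.62 and -3.67 (log2 change -3.82, SE 0.31, adjusted p = 1.06e-08).

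No long-intron insert passed edgeR's test of RNA per gDNA between siRRP40 and siNT. Of 302, 0 passed (0.0% of 9812), and the smallest adjusted p was 0.0751. At an unadjusted p under 0.05, 10 were higher with siRRP40 and 35 lower (14.9% in all), where 8.49% of all tested inserts had such a p. DESeq2 called 1 higher and 3 lower (1.32% in all), where it called 0.591% of all tested inserts. The median log2 difference of siRRP40 against siNT was -0.26, where all tested inserts had 0.00. Mid-length introns and introns of 70 to 94 nt each had -0.19, and inserts without a spliced reference 0.02, so the shift was not particular to long introns. The mean level was lower with siRRP40 in 191 of 302 (63.2%), a share that was not counted over all inserts. Whether the exosome was depleted cannot be read from these amplicons.

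Few long-intron inserts passed a test of their level between the loci. Of 282 long-intron inserts, 6 were called higher and 1 lower at 14Rik (0.973% and 1.23%, 2.2% in all, of the 10076 tested), with a median log2 difference of 0.15, where all had -0.06. The sign of that median turned to -0.0452 without the screen as a block and to -0.27 without screens 2 and 3. sequence_13628 (126 nt removed) had levels of 3.36, 2.37 and 3.71 at 14Rik, against -0.61, 0.01, -3.28 and 0.58 at Pou5f1 (log2 difference 3.81, SE 0.84, adjusted p = 0.0408). sequence_00275 (135 nt removed) had 3.46, 3.20 and 3.01 at 14Rik, against -0.38, 0.35, 0.61 and 0.78 at Pou5f1 (log2 difference 2.80, SE 0.40, adjusted p = 0.00551). It was mostly unspliced at both, with shares of 5.54%, 2.41% and 7.56% at 14Rik and 4.301%, 1.01%, 1.44% and 18.2% at Pou5f1. sequence_12550 was the one lower at 14Rik, with levels of 3.84, 3.46 and 4.66, against 5.24, 6.00, 5.64 and 6.39 at Pou5f1 (log2 difference -1.92, SE 0.43, adjusted p = 0.0435). The calls for sequence_13628 and sequence_12550 were lost when any 14Rik library, or screen 1, 2 or 4 at Pou5f1, was left out. The 7 calls became 3 without 14Rik library 2, 1 without 14Rik library 3, and 2, 1 and 4 without Pou5f1 screen 1, 2 and 4.

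Sorted cells gave a readout of reporter output that does not use RNA reads. The labels do not say which end of the 6 mKate2 bins is brighter. Among 304 long-intron inserts with enough reads, the median mean bin was 4.21 and 4.40 in the 2 screens, against 3.19 and 3.34 over all 10229 tested inserts and 3.09 and 3.23 without a spliced reference. Mid-length introns had 3.96 and 4.07. Long-intron inserts had on average 29.2% and 32.6% of their gDNA in bin 6 and 7.80% and 7.60% in bin 1, against 11.0% and 12.4% in bin 6 and 15.3% and 13.5% in bin 1 over all tested inserts. A mean bin of 5 or more was found for 35.9% and 39.1% of them, against 13.5% and 14.8% of all tested inserts.

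The slope of abundance over the bins was called towards bin 6 for 144 of 304 long-intron inserts and towards bin 1 for 39 (23.0% and 28.1%, 51.1% in all, of the inserts tested). Without sort screen 2 the calls were 105 and 1, where 1232 and 115 of the 10229 inserts tested were called. With at least 200 unsorted and 400 binned reads, 34 inserts were left, of which 16 were called towards bin 6 and 8 towards bin 1 (28.4% and 28.8% of all inserts with that coverage). Towards bin 6 went 47.4% of long-intron inserts, 39.1% of those with mid-length introns, 38.5% with 70 to 94 nt and 20.7% without a spliced reference.

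Inserts well spliced in siNT cells stood highest in the bins, but the order did not hold at low shares. Inserts 90% or more spliced there had a median mean bin of 5.55 and 5.61 and held 51.5% and 57.0% of their gDNA in bin 6. Those at 50% to 90% had 4.15 and 4.39, those at 10% to 50% had 3.42 and 3.24, while those under 10% stood above these with 3.71 and 3.69. Over 297 inserts the mean bin and the siNT share had a Spearman's rho of 0.53 in both screens. Mean bin and total RNA level at Pou5f1 had 0.76 and 0.73 over 245 inserts, and both sort screens had 0.95 over 304. These are descriptions over inserts of 1 library design.

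sequence_12836 (131 nt removed) had 1172 and 2810 reads in bin 6. These made up 100% and 99.2% of its gDNA over the bins, each bin scaled to its total (slope 5.02 log2 units per bin, SE 0.64, adjusted p = 1.48e-07). sequence_12444 (142 nt removed) lay there with 99.6% and 99.5% (slope 4.89, SE 0.64, adjusted p = 2.13e-07), and at 14Rik it had 12770, 5870 and 15614 RNA reads but 0, 0 and 4 gDNA reads. Slopes of inserts absent from several bins depend on the prior count, so the bin percentages are the better measure. At the other end, sequence_14974 (126 nt removed) had 24.1%, 65.2% and 10.2% in bins 1 to 3 of screen 1 and 35.0%, 49.6% and 14.4% in screen 2 (slope -2.77, SE 0.64, adjusted p = 0.000350). sequence_10859 (129 nt removed) had 51.8% and 31.5% in bins 1 and 2 of screen 1 and 74.4% and 20.8% in screen 2 (slope -2.77, SE 0.59, adjusted p = 0.000158). sequence_12363, among the highest in RNA, lay mostly in bin 4, with 74.5% and 69.4%.

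Calls of higher RNA at each locus and of a slope towards bin 6 overlapped, more so among long-intron inserts than over all inserts tested in both readouts of a pair. Of 282 long-intron inserts tested at both loci, the inserts higher in total RNA than in gDNA at both loci made up 74.8% of the 159 called higher at 14Rik and 88.1% of the 135 called higher at Pou5f1 (63.7% and 75.2% over all inserts), and 0 were called in opposite directions. Of 245 tested in total RNA at Pou5f1 and in the sort, 89 were higher in RNA and towards bin 6, which is 74.2% of the 120 RNA calls and 75.4% of the 118 sort calls (54.1% and 56.2% over all inserts), again with 0 opposite. Of 272 tested at 14Rik and in the sort at Pou5f1, 109 were shared, which is 71.7% of 152 and 85.8% of 127 (45.8% and 54.5% over all inserts), with 3 opposite. Of 266 tested in siNT cells and at 14Rik, 128 were higher in both, which is 80.0% of 160 and 91.4% of 140 (59.1% and 80.6% over all inserts), with 2 opposite. Of 217 tested in siNT cells and in the sort, 89 were shared, which is 64.0% of the siNT calls and 92.7% of the 96 sort calls (41.8% and 69.3% over all inserts), with 4 opposite. No test of these overlaps was made, and long-intron inserts also had larger shares called higher. These libraries share no RNA or gDNA sample.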

How the data were processed

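Deposited count tables of 46 amplicon libraries were used (17 RNA, 14 gDNA, 12 sorted bins, 3 unsorted), and 12 of 58 samples were not analysed here. The authors counted reads per reference; the submitters' processing notes name cutadapt 1.14 and Bowtie2 2.3.4.3, and the build in the labels is mm10. Another 3 deposited tables, with 44 columns, were not used. The members, the length classes and the tests were chosen with earlier results of these data known. Number stretches and gDNA ranges were chosen after seeing the data.

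Reads of plain and spliced references were added per insert. RNA against gDNA was tested with edgeR 4.0.16 (R 4.3.3) quasi-likelihood fits over all inserts with at least 50 gDNA reads in every library of the fit, with TMM scaling and the screen as a block. Run-on library 1 shares the gDNA library of Pou5f1 screen 4, run-on library 2 has its own (screen 5), and chromatin RNA uses the gDNA of screens 2 and 3. Screen numbers pair RNA with gDNA per the labels; their deviations correlated at 0.244 to 0.525 at Pou5f1 and 0.042 to 0.280 at 14Rik, while siRNA letters (-0.011 to 0.020) did not pair the siRRP40 and siNT cultures. The odds of spliced reads and the slope over 6 bins (at least 50 unsorted and 100 binned reads) were tested the same way, and p-values were adjusted by Benjamini-Hochberg over all inserts tested. Alternatives used limma 3.58.1, DESeq2 1.42.0, other scalings and filters, and left out single libraries. The main edgeR fits and limma on log odds were run on simulated counts with a fixed spread, except the test of total against run-on RNA levels. That spread was not taken from the real screens, so the runs do not show how the fits behave at the real spread. Inserts named for a test have the largest passed change per direction, at most 2, the same way in every screen. Their reads averaged 200 or more, counted in gDNA for the tests of RNA levels. sequence_12255 was named for its RNA read count instead, and sequence_13436 and sequence_13676 for their intron length. Limits for counts of 0 cover counting error only.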

Additional observations from a re-analysis of the deposited data

Results flagged for a closer look

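Among 54 sets of 4 total RNA values at Pou5f1 (levels and shares of the named long-intron inserts), 7 had 1 screen set apart from the other 3 relative to their range. Chance gives about 1 in 20 for values free to vary, a rate that does not hold for shares tied at 0 or 100%. In screen 4 these were the level of sequence_11011 (-2.57) and the spliced shares of sequence_12278 (99.98%), sequence_12397 (99.2%) and sequence_14974 (4.89%). For these 3 inserts the other screens were tied at 100%, 100% and 0, so the smallest gap met the criterion. Screen 4 has the deepest total RNA. The spliced shares of sequence_12687 in screen 2 (97.3%), sequence_12444 in screen 3 (98.8%) and sequence_10859 in screen 1 (64.3%) also stood apart.

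The change of RNA over gDNA differed between the loci for sequence_13628 (log2 difference 3.81, 14Rik minus Pou5f1), sequence_00275 (2.80) and sequence_12550 (-1.92), each past an adjusted p of 0.05 in edgeR's test of the difference. The odds of splicing differed for sequence_01435 (9.66), sequence_12278 (-8.65) and sequence_12397 (-8.19) by the same kind of test. The call for sequence_00275 held under every alternative run for it, while the other 5 each lost theirs when single libraries were left out.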

How the results depend on the processing

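Counted over both directions, the calls of long-intron inserts in RNA against gDNA moved most with the model and the filter. The counts in this section are of long-intron inserts alone, and calls over all tested inserts moved with the setting too. In run-on RNA, 1.22% of all tested inserts were called in the main fit and 9.57% with DESeq2. No shift in these counts is therefore read as particular to long-intron inserts. DESeq2 gave 54 calls in chromatin RNA, 49 in run-on RNA, 55 for total against run-on RNA, 4 for siRRP40 against siNT and 21 between the loci. A minimum of 200 gDNA reads gave 41 in total RNA at Pou5f1, 11 in chromatin RNA, 5 in run-on RNA, 11 for total against run-on RNA, 105 with siNT and 1 between the loci, from fewer inserts tested. Without a filter there were 8 for total against run-on RNA and 414 with siNT. Scaling to library totals gave 9 for total against run-on RNA. Without the screen as replicate block there were 11 in chromatin RNA, 16 in run-on RNA, 11 for total against run-on RNA and 2 between the loci, and with the culture letter as replicate block 1 for siRRP40 against siNT. With reads of at least 200 and 400 the sort gave 24 calls.

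Unspliced reads alone gave 136 calls at 14Rik, 10 in chromatin RNA and 1 in run-on RNA, and turned the median log2 change of long-intron inserts to -1.16 in total RNA at Pou5f1, -0.44 at 14Rik, -0.19 in chromatin RNA, -0.12 in run-on RNA, -0.87 for total against run-on RNA and -1.10 with siNT. It also turned sequence_12550 to -1.81 in total RNA at Pou5f1, -1.99 with siNT and 1.21 between the loci, sequence_09770 to -0.0501, sequence_12687 to -0.0266 in run-on RNA and sequence_12363 to -1.88 with siNT. This alternative leaves out the spliced reads by construction. The median difference between the loci turned to -0.0452 without the replicate block, to -0.0650 without Pou5f1 screen 3 and to -0.27 without screens 2 and 3.

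For spliced shares, limma on log odds gave 65 calls against run-on RNA, 12 against chromatin RNA and 28 between the loci. At least 100 reads gave 8 against run-on RNA, and TMM factors 1 against chromatin RNA. Leaving out screens 2 and 3, chosen after seeing the data, gave 50 calls in run-on RNA, 76 for total against run-on RNA and 2 for levels between the loci, and for shares 79 against run-on RNA and 48 between the loci. The causes of these shifts were not tested.

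Leaving out 1 library or screen at a time gave 221 to 332 calls at 14Rik, 129 to 183 at Pou5f1, 7 to 27 in chromatin RNA, 0 to 25 in run-on RNA, 0 to 32 for total against run-on RNA and 217 to 244 with siNT. It gave 1 to 5 for levels and 0 to 13 for shares between the loci, and 106 to 142 for the sort. Of the counts recomputed, 101 stayed within 1.5 times the reported one and 55 did not. Of the results for medians and named inserts, 399 stayed the same: medians within a fixed limit, named inserts with direction and call kept. In 91 cases a named insert lost the call, in 23 a median moved past the limit and in 15 the sign turned.

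The precision of long-intron inserts is limited by gDNA, where 58 of them had 200 or more reads in every Pou5f1 library.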

Other observations

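sequence_12255 (138 nt removed), with the second most RNA reads among long-intron inserts is given here for the order of its RNA kinds. Its spliced shares were 61.8%, 80.6% and 92.5% at 14Rik, 90.4%, 70.4%, 84.2% and 95.3% in total RNA at Pou5f1, 37.9% and 17.1% in run-on RNA and 19.7% and 19.4% in chromatin RNA. With siRRP40 the shares were 92.3%, 92.6% and 90.6%, against 93.0%, 93.9% and 94.02% with siNT, so the cultures did not overlap for this insert. Its levels were 0.38, 1.79 and 3.11 at 14Rik and 0.19, -0.92, -0.82 and 1.53 in total RNA at Pou5f1, so a share over 70% stood beside a level under the library median in screens 2 and 3. It was chosen for its read count.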
